A study of Mus musculus with 3 samples.

Results

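Connexins are the proteins of gap junctions. A set of 8 mouse connexin genes was taken from the 57180 genes of the deposited expression table by gene symbol: the deafness connexins Gjb2 and Gjb6, the glial connexins Gjb1 and Gjc3, the widely expressed Gja1, the vascular connexins Gja4 and Gjc1, and Gjb5 of stratified epithelia. All 8 symbols matched 1 row each, and no other gene of the table overlapped any of the 8. The samples were 3 libraries of polyadenylated RNA from wild-type (WT) mouse vestibular cells that looked like black balls, 18 cells from 9 mice. The labels speak of 3 mice per group but name 1 group, and do not say how cells and mice were divided among the libraries. The labels call the cells macrophages and immune cells, the series title speaks of melanocytes, and no source used here gives strain or age. There was 1 group and no control group, so genes were compared with genes within a library. Since no library is tied to named animals, the p-values cover only how far these libraries vary among themselves, possibly for technical reasons.

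Connexins assemble into hexameric channels, and the channels of neighbouring cells dock to form a pore for ions and small molecules. In the inner ear, Cx26 (encoded by Gjb2) and Cx30 (encoded by Gjb6) join supporting cells, non-sensory epithelial cells and fibrocytes, where they are thought to carry potassium and metabolites. Variants of human GJB2 are a leading cause of inherited deafness, and deletions that include GJB6 also cause it.

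The libraries held between 14095521 and 18460546 counts. Levels are in TPM, the deposited FPKM scaled to a common sum per library, and values are mean ± SD over 3 libraries unless stated. All 10 macrophage markers stood above 1 TPM in limma's test, led by Lyz2, Ctss, C1qb and Tyrobp, with a summed level of 5522 to 8832 TPM across libraries. Of 10 melanocyte markers 7 did, led by Dct, Mlana, Pmel and Slc45a2, with a sum of 546 to 672 TPM. Of 10 genes listed as markers of dark and strial marginal cells 8 did, led by Kcnj13, Slc12a2, Atp1b2 and Kcne1. That list need not mark 1 cell type. Kcnj13 (189, 403 and 136 TPM in replicates 1, 2 and 3) was highest in replicate 2, where Kcne1 (64.1, 37.4 and 141 TPM) was lowest. Which cells gave Kcnj13 was not tested. Of 10 hair cell markers 9 did stand above 1 TPM, led by Ocm, Calb2, Pou4f3 and Gfi1. Likewise, of 12 markers of supporting and non-sensory epithelium 10 did, with a sum of 959 to 1463 TPM. Beside these counts, the test called 37.6% of all genes tested, and 8194 of the 16219 protein-coding genes tested. Each library is 1 sum of RNA, so fewer cells of a type and less RNA per cell cannot be told apart, nor can the cells that gave a transcript.

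The deafness connexins were abundant and the other members were low. Gjb6 and Gjb2 together held 98.8%, 98.5% and 97.2% of the summed TPM of all 20 mouse connexin genes in replicates 1, 2 and 3. Of the 8 members, 3 stood above 1 TPM in limma's one-sided test (Benjamini-Hochberg adjustment over 27265 genes): Gjb6, Gjb2 and Gjb1. The same test called 37.6% of all genes tested, and 8194 of the 16219 protein-coding genes tested. Gjb5 had no count and was not tested. Above 10 TPM stood 2 of the 8, Gjb6 and Gjb2, where the test called 14.7% of all genes. The median level of the 8 members, with the uncounted Gjb5 included, was 1.64 on the log2(TPM + 1) scale. That median was 1.49 over all genes tested and 2.32 over the protein-coding genes tested, so the set was not high as a whole.

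**Figure D1:**
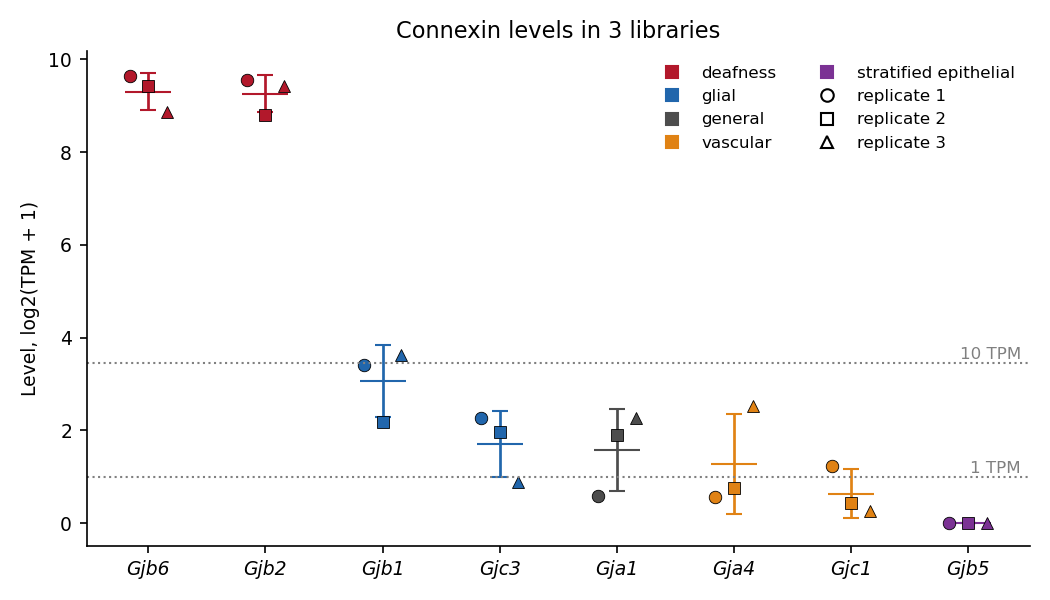
Level of each of the 8 connexin genes as log2(TPM + 1) in the 3 libraries; symbols are libraries, colours are the classes, and the bars give mean ± SD. Gjb6 and Gjb2 sit near 9.3, while the other 6 genes have mean levels of 3.07 or less; dotted lines mark 1 and 10 TPM.

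Gjb6 (chromosome 14, 57360760 to 57371068, GRCm39) and Gjb2 (chromosome 14, 57336057 to 57342159) are neighbours in a cluster of 3 connexin genes. Their reference sequences are given because the results turn on these 2 genes. The windows below run from 250 bases before to 50 bases after the annotated start, from RefSeq on GRCm38.p6, minus strand, chr14:57133562-57133861 for Gjb6 and chr14:57104653-57104952 for Gjb2. Capitals mark the GC box GGGCGG or its reverse complement CCGCCC.
Gjb6 promoter: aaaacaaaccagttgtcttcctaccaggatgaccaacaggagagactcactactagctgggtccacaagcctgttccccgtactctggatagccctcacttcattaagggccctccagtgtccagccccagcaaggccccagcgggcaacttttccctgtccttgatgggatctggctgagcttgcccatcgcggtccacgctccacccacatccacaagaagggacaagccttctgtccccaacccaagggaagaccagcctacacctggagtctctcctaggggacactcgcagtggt
Gjb2 promoter: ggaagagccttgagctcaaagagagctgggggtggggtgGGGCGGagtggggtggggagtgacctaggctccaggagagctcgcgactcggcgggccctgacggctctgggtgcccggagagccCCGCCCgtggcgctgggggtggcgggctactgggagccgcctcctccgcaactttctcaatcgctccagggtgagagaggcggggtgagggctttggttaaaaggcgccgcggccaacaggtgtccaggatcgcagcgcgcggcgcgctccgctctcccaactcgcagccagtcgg
The Gjb6 window held no GC box, and the Gjb2 window held 2, whose first bases lay 211 and 126 bases upstream of the start. Of 32851 mouse promoter windows of that length, 35.7% held this motif on either strand. Neither window held TATAAA (13.6% of all windows) or CCAAT (37.4%), both strands searched. The Gjb6 window had 57.3% G and C and 6 CpG, and the Gjb2 window 70.0% and 27 CpG, beside medians of 52.7% and 7 over all windows. Windows were found for 7 of the 8 members.

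The coding sequences of Gjb6 and Gjb2 (783 and 678 bases without the stop codon, GENCODE M21) were 76.7% identical over aligned bases, the highest identity among the 28 pairs of members. Their longest identical stretch is printed to show how long an exact match between the coding sequences can be; untranslated parts were not compared. It was 20 bases long and began at base 214 of each coding sequence.
Shared by Gjb6 and Gjb2: tctcacatccggctctgggc
The sources used here do not say how reads matching several genes were assigned.

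Gjb6 measured 794, 684 and 467 TPM across replicates 1, 2 and 3, from 30125, 23622 and 15793 counts. It was highest in replicate 1 and lowest in replicate 3. Gjb2 measured 748, 448 and 688 TPM, from 13363, 7279 and 10952 counts, and was lowest in replicate 2. Exact Poisson intervals, which cover counting error only, were narrow beside these gaps: 15548 to 16041 counts for Gjb6 in replicate 3 and 7113 to 7448 for Gjb2 in replicate 2. The means were 648 ± 166 TPM for Gjb6 and 628 ± 159 TPM for Gjb2, with coefficients of variation of 25.7% and 25.3%. By mean TPM they ranked 221 and 230 among the 27265 genes with a count in any library, and both passed limma's test against 1 TPM (adjusted p = 1.3e-05) and 10 TPM (adjusted p = 0.000111).

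On this scale Gjb6 and Gjb2 did not differ beyond the spread between libraries. The difference, Gjb6 minus Gjb2, was 0.09, 0.61 and -0.56 on the log2(TPM + 1) scale in replicates 1, 2 and 3 (0.05 ± 0.59; two-sided p = 0.75 in an exact permutation of signs, adjusted p = 0.75 over 28 pairs). Gjb6 was higher in 2 of 3 libraries.

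The length behind the deposited FPKM bears on this comparison. For 92.1% of 17559 genes, the length implied by count and FPKM matched within 1% the summed length of all distinct exons of the gene in GENCODE M21. Such a sum counts a stretch more than once where exons of several transcripts overlap. For Gjb6, with 4 annotated transcripts, it was 5111 bases, against 2105 bases for the longest transcript and 2674 for merged exons. For Gjb2, with 1 transcript, it was 2406 bases by each of the 3 definitions.

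With merged exon lengths, Gjb6 stood at 1208, 1058 and 725 TPM and Gjb2 at 595, 362 and 559 TPM in replicates 1, 2 and 3. The Gjb6 to Gjb2 ratio was then 2.03, 2.92 and 1.297. With the longest transcript, Gjb6 averaged 1058 ± 256 TPM and Gjb2 422 ± 102 TPM, with ratios of 2.58, 3.71 and 1.65. Gjb6 was thus higher in 3 of 3 libraries by either length (two-sided p = 0.25 in an exact permutation of signs, which can go no lower with 3 libraries). With the deposited lengths the ratio was 1.06, 1.53 and 0.679, and in CPM, which uses no length, 2.25, 3.25 and 1.44. The merged exon and longest transcript lengths were chosen after the data were seen.

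**Figure D2:**
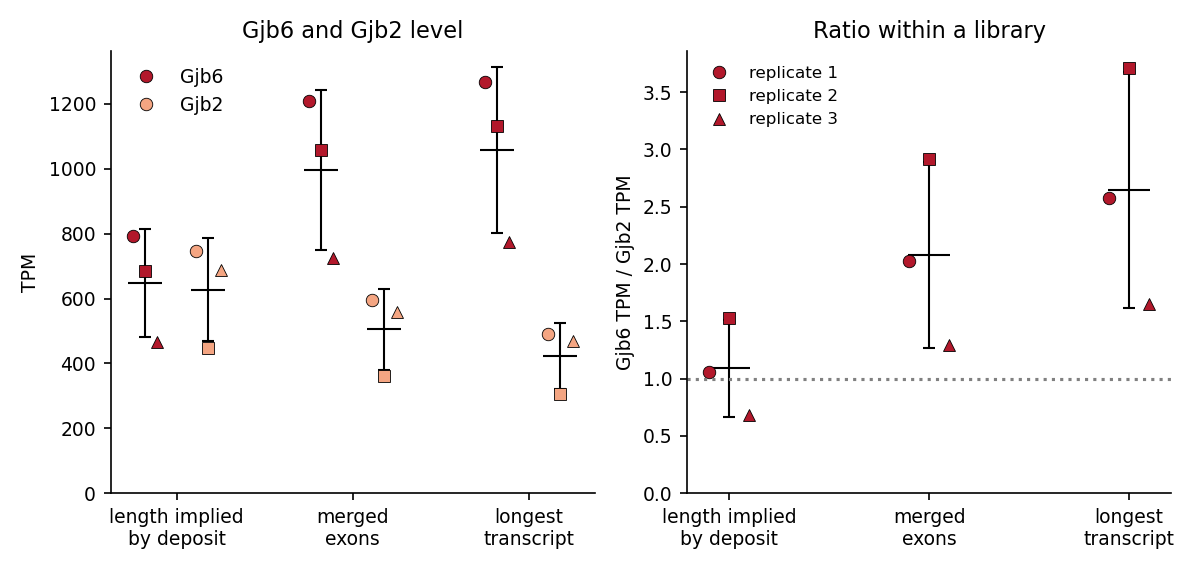
Left, TPM of Gjb6 and Gjb2 in the 3 libraries with 3 definitions of gene length; right, the Gjb6 to Gjb2 ratio within each library, with a dotted line at 1. Bars give mean ± SD; the mean ratio is 1.09 with the deposited length, 2.08 with merged exons and 2.64 with the longest transcript.

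The protein-coding genes whose levels lay nearest to Gjb6 in all 3 libraries were Bcap31, Mdh1, Pgrmc1, H3f3b and Tuba1a, with a largest difference in any library of 0.22 to 0.27 on the log2(TPM + 1) scale. For Gjb2 they were Gsn, the actin-severing gelsolin, H1f2, Psmc5, Bsg and Id3, within 0.14 to 0.30. Gjb2 was in place 45 among the genes nearest to Gjb6, and Gjb6 in place 44 among those nearest to Gjb2, with a largest difference of 0.61. Likeness here rests on 3 libraries, describes levels only and uses the deposited lengths. With merged exon lengths Gjb6 averaged 997 TPM and Gjb2 505 TPM, and the nearest genes were not sought again on that scale.

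Among markers of supporting and non-sensory epithelium, the highest were Krt18, a keratin of simple epithelia, with 449 ± 160.5 TPM, Sparcl1 with 325 ± 59.0 TPM, the adhesion protein Epcam with 234 ± 74.6 TPM and Krt8 with 64.2 ± 5.95 TPM. The summed level of these 12 markers was 1463, 959 and 1116 TPM in replicates 1, 2 and 3, lowest in replicate 2, but single markers varied. Of the 12, 5 were lowest in replicate 2, as Gjb2 was, and 6 in replicate 3, as Gjb6 was. Krt18 stood at 618, 298 and 431 TPM, Sparcl1 at 313, 273 and 389 TPM, and Epcam at 303, 244 and 155 TPM in that order. No marker of that list was at 0. Fibrocytes also use both connexins, and their 10 markers, led by Coch (8005 ± 2950 TPM), Otos (3433 ± 1074 TPM), Dcn (336 ± 113 TPM) and Lum (108 ± 67.0 TPM), summed to 13072, 13277 and 9531 TPM. The low sum in replicate 3 came mainly from Coch (10205, 9157 and 4653 TPM), while Otos was highest there (2360, 3430 and 4508 TPM), as were 6 of the 10 markers. The part of either cell type in the connexin levels was not tested.

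The glial connexins were far below the deafness connexins. Gjb1 (chromosome X, 100419984 to 100429235) encodes Cx32 of Schwann cells and hepatocytes, and variants of human GJB1 cause an X-linked neuropathy. It measured 9.63, 3.55 and 11.3 TPM across replicates 1, 2 and 3, from 122, 41 and 128 counts, lowest in replicate 2. Gjb1 passed limma's test against 1 TPM (8.17 ± 4.09 TPM, adjusted p = 0.00573), but not without replicate 1 (adjusted p = 0.108) or without replicate 3 (0.0845).

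Gjc3 (chromosome 5, 137951723 to 137961360), which encodes Cx29 of myelinating glia in mice, measured 3.79, 2.90 and 0.857 TPM across replicates 1, 2 and 3, from 129, 90 and 26 counts. It was lowest in replicate 3 and did not pass (2.52 ± 1.504 TPM, limma, adjusted p = 0.215). The exact Poisson intervals of its counts were 108 to 153 in replicate 1 and 17.0 to 38.1 in replicate 3, which do not overlap.

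The mean level of Gjb2 and Gjb6 exceeded that of the glial pair by 6.76, 7.04 and 6.89 on the log2(TPM + 1) scale in replicates 1, 2 and 3 (6.90 ± 0.14). Markers of Schwann cells and glia summed to 8595, 6843 and 9751 TPM, of which S100b, also used by other cells, gave 8131 ± 1378 TPM. Pmp22 (88.8 ± 69.1 TPM), Mal (72.6 ± 13.9 TPM) and Cnp (49.4 ± 25.5 TPM) came next, 6 of 10 markers stood above 1 TPM and none was at 0. Like Gjb1, the marker sum and 9 of the 10 markers were lowest in replicate 2, whereas Gjc3 was lowest in replicate 3, where the sum was highest. The part of glial RNA in these levels was not tested.

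Gja1 (chromosome 10, 56253426 to 56278609), which encodes the widely expressed Cx43 of heart, astrocytes and bone, was low. It measured 0.499, 2.72 and 3.801 TPM across replicates 1, 2 and 3, from 43, 213 and 292 counts, so replicate 1 was low beside the other two. It did not pass against 1 TPM (2.34 ± 1.68 TPM, limma, adjusted p = 0.311). Gjb2 and Gjb6 exceeded Gja1 by 9.01, 7.22 and 6.89 on the log2(TPM + 1) scale (7.70 ± 1.14).

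The length implied for Gja1 was 11608 bases over 8 transcripts, beside 3889 bases for the longest of them and 10257 for merged exons. With the longest transcript, Gja1 measured 0.979, 5.53 and 7.74 TPM across replicates 1, 2 and 3 and did not pass either (limma, adjusted p = 0.0867). In CPM, which uses no length, Gja1 passed against 1 CPM (12.4 ± 9.31 CPM, limma, adjusted p = 0.0123), where 43.4% of all genes were called.

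By mean level the vascular connexins were the lowest members with any count, though not in each library. Gja4 (chromosome 4, 127205214 to 127207832), which encodes Cx37 of endothelium, measured 0.480, 0.703 and 4.75 TPM across replicates 1, 2 and 3. Its counts were 6, 8 and 53, with exact Poisson intervals of 2.20 to 13.1, 3.45 to 15.8 and 39.7 to 69.3, so replicate 3 stood apart beyond counting error. Gja4 did not pass against 1 TPM (1.98 ± 2.40 TPM, limma, adjusted p = 0.562).

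Endothelial markers summed to 19.5, 32.5 and 35.7 TPM in replicates 1, 2 and 3, but single markers varied, and 4 of the 10 were highest in replicate 3, as Gja4 was. Of the 10 endothelial markers 2 stood above 1 TPM, Emcn (8.13, 10.5 and 4.002 TPM) and the VEGF receptor Kdr (4.67, 8.61 and 6.82 TPM). Cldn5 (0.381, 10.7 and 8.96 TPM) and Esam (5.40, 0.173 and 5.52 TPM) did not, and Tie1 was at 0 in all libraries. Their part in the Gja4 level was not tested.

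Gjc1 (chromosome 11, 102690405 to 102710526), which encodes Cx45 of vascular smooth muscle and cardiac conduction tissue, measured 1.35, 0.352 and 0.192 TPM across replicates 1, 2 and 3, from 63, 15 and 8 counts. It was highest in replicate 1 and did not pass (0.630 ± 0.625 TPM, limma, adjusted p = 1). Markers of pericytes and smooth muscle summed to 28.7, 22.5 and 34.8 TPM, with the highest sum in replicate 3, where Gjc1 was lowest. Of the 10 markers, 5 were highest in replicate 1, as Gjc1 was, and 4 in replicate 3. Of those 10 markers Pdgfrb (8.58 ± 3.63 TPM) and Tagln (8.001 ± 1.31 TPM) stood above 1 TPM, Acta2 (6.60 ± 6.63 TPM) and Rgs5 (2.08 ± 1.17 TPM) did not, and none was at 0 in all libraries. The deafness pair exceeded the vascular pair by 8.69, 8.51 and 7.76 on the log2(TPM + 1) scale (8.32 ± 0.50).

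Gjb5 (chromosome 4, 127248602 to 127251974), a connexin of the epidermis and of the placental trophoblast, had 0 counts in each library. A floor of 3 counts per library allows up to 0.154, 0.176 and 0.180 TPM in replicates 1, 2 and 3 with the longest transcript, 1721 bases. On that length scale Gjb6 was 8210, 6438 and 4304-fold above the Gjb5 floor in the same order. Gjb2 was 3186, 1736 and 2611-fold above it. The floor was a chosen setting, and the exact Poisson interval of 0 counts reaches 3.69 counts, so these folds are not strict lower bounds. Of 10 markers of stratified epithelium, 5 were also at 0 in all libraries (Krt14, Krt15, Dsg3, Dsc3 and Krt6a). Krt10 stood at 39.0 ± 3.36 TPM, and Krt5 (2.08 ± 1.90 TPM), Krt1 (0.281 ± 0.191 TPM) and Trp63 (0.132 ± 0.202 TPM) did not pass against 1 TPM.

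**Figure D3:**
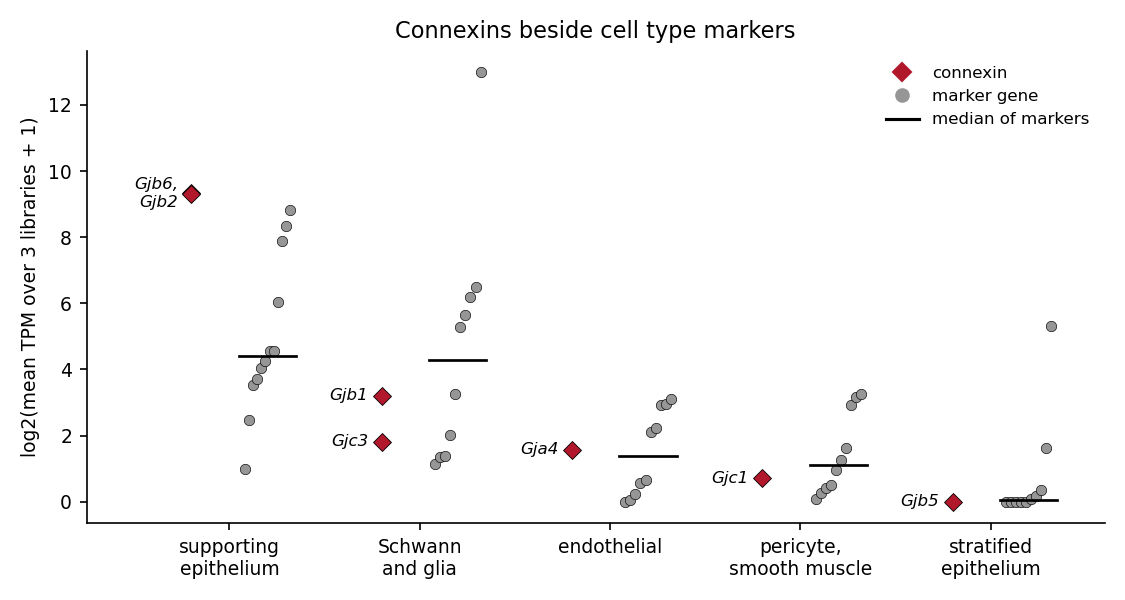
Mean level over 3 libraries, as log2(mean TPM + 1), of connexins (diamonds) beside the markers of a cell type known to use them (circles, line at the median). Gjb6 and Gjb2 lie above all 12 markers of supporting epithelium, Gjb1 and Gjc3 lie below the glial median, and Gjb5 lies at 0. Markers of fibrocytes, which also use Gjb6 and Gjb2, are not drawn. Of those, Coch (8005 TPM) and Otos (3433 TPM) averaged above both connexins, and the others, led by Dcn (336 TPM), below.

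By mean level the order was Gjb6, Gjb2, Gjb1, Gjc3, Gja1, Gja4, Gjc1 and Gjb5. Gjb2 exceeded Gjb1, the next gene, by 6.19 ± 0.41 on the log2(TPM + 1) scale, more than the spread and in 3 of 3 libraries. Gjb1 exceeded Gjc3 by 1.15, 0.22 and 2.73 in replicates 1, 2 and 3, and Gjc1 exceeded Gjb5 by 0.64 ± 0.52. The neighbours Gjc3 and Gja1 (0.13 ± 1.52), Gja1 and Gja4 (0.29 ± 0.73), and Gja4 and Gjc1 (0.65 ± 1.49) did not differ beyond their spread. Of all 28 pairs, 22 had the same order in 3 of 3 libraries, each with a two-sided p = 0.25 and adjusted p = 0.318 in an exact permutation of signs; this test cannot give a p below 0.25 with 3 libraries.

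The 12 other connexin genes added little, with a summed level of 3.17, 6.88 and 12.2 TPM in replicates 1, 2 and 3. Only 5 of the 12 had a count in any library and were tested in limma. Of these 5, 0 were called above 1 TPM, where limma called 37.6% of all genes tested, and 1 had an unadjusted p under 0.05. A quasi-likelihood test formed from edgeR's fit to the counts called 1 of them, Gjd3, where it called 45.5% of all genes. Where edgeR is named for a call, this test is meant. Gjd3 stood at 2.25, 1.59 and 8.66 TPM from 14, 9 and 48 counts (limma, adjusted p = 0.106; edgeR, adjusted p = 0.039). Gja5, which encodes Cx40 of arterial endothelium and atrium, stood at 0.379, 0.0832 and 0.149 TPM.

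Gjd2, which encodes Cx36 of electrical synapses, had 35 counts in replicate 3 and 0 in replicates 1 and 2. Gja3 of the lens, Gja6, Gja10, Gjd4 and Gje1 had 0 counts in every library.

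**Figure D4:**
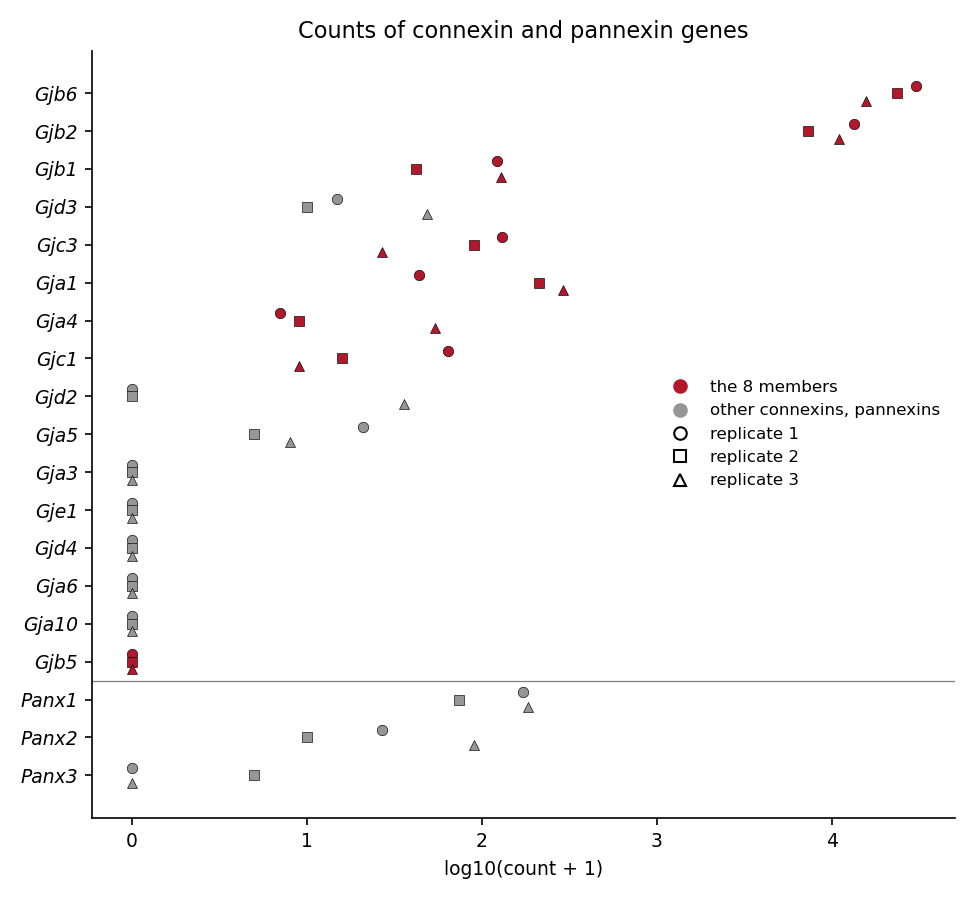
Counts per library, as log10(count + 1), of the 8 members and the other connexin genes named here (ordered by level) and, below the line, the 3 pannexin genes. Gjb6 and Gjb2 have 7279 to 30125 counts, and every other gene shown has 292 or fewer.

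The connexin cluster of chromosome 14 held genes of unequal level. A span of 99.2 kb holds Gjb6, Gjb2 and Gja3, with mean levels of 648, 628 and 0 TPM.

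**Figure D5:**
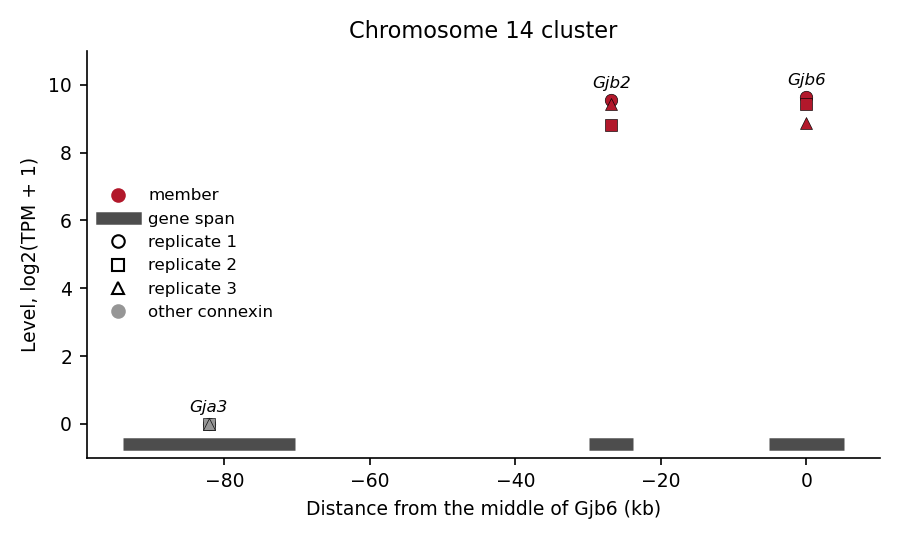
Level, log2(TPM + 1), of the connexin genes of the chromosome 14 cluster by distance in kb from the middle of Gjb6; symbols are libraries and grey bars are gene spans. Gjb6 and Gjb2 stand high beside Gja3 at 0.

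The pannexins, a related channel family, were low: Panx1, a channel that releases ATP, stood at 3.33, 1.55 and 3.996 TPM, Panx2 at 0.578, 0.220 and 2.22 TPM, and Panx3 at 0, 0.145 and 0 TPM in replicates 1, 2 and 3. In limma, 0 of the 3 were called above 1 TPM, with 1 at an unadjusted p under 0.05, and edgeR called Panx1 (limma, adjusted p = 0.103; edgeR, adjusted p = 0.0106). Of 10 genes whose proteins bind connexins or act in their trafficking and assembly, 6 stood above 1 TPM in limma's test. That test called 37.6% of all genes, and 8194 of the 16219 protein-coding genes tested. The catenin Ctnnb1 was highest with 73.4 ± 19.9 TPM. The junction scaffold Tjp1, which binds Cx43, stood at 15.8 ± 3.09 TPM. Ubqln4 (8.53 ± 3.67 TPM), the caveolin Cav1 (6.88 ± 3.97 TPM) and Cnst (4.02 ± 1.40 TPM) also passed. Only 3 of the 10 passed without replicate 1, where Ubqln4, Cav1 and Cnst lost the call; Cav1 also lost it without replicate 3, and Cnst without either other replicate. Cnst also lost it with merged exon lengths (limma, adjusted p = 0.0538) and with a pseudocount of 5 (0.0742). Ccn3 (0, 1.24 and 11.6 TPM in replicates 1, 2 and 3), Cdh2 (2.19 ± 1.304 TPM), Src (1.90 ± 0.987 TPM) and Dbn1 (1.37 ± 1.07 TPM) did not pass, though Cdh2 and Src did against 1 CPM.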

How the data were processed

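RNA of mouse vestibular cells was measured in 3 libraries of 1 group, with 14095521 to 18460546 counts each. Per the labels' protocols, complementary DNA was made with the SMART-Seq HT kit. The submitters' processing notes name HISAT2, StringTie, edgeR and GRCm39, with neither version nor role. Per the file headers, the table the authors deposited gives a raw count and an FPKM for every gene. FPKM was rescaled to TPM and analysed as log2(TPM + 1) in limma 3.58.1 (R 4.3.3): an intercept-only fit with a mean-variance trend over 27265 genes counted in any library, testing each mean against 1 or 10 TPM, one-sided, with Benjamini-Hochberg adjustment and a threshold of 0.05. Fold differences on this scale are compressed for low genes. Differences between genes used an exact sign-flip permutation test. Alternatives included a one-sided quasi-likelihood test on counts with edgeR 4.0.16 and scaling by DESeq2 1.42.0. The quasi-likelihood test was formed from the deviances of edgeR's fit, because edgeR's own test function does not take an intercept-only design. Differences between class means have no test. Text names all 8 members, the other connexin and pannexin genes, the connexin partners, the 4 highest genes of each marker list and any at 0 in all libraries, and the nearest genes by level. A few genes of these lists are not reported here, though they remain in sums and counts. Members and lists were chosen with earlier results of these data known.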

Additional observations from a re-analysis of the deposited data

How the results depend on the processing

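The calls of Gjb6 and Gjb2 above 1 and above 10 TPM held under every alternative run, and the count of members above 1 TPM was 2 to 4, with Gja1 as the fourth in CPM. Gjb6 minus Gjb2 was -0.24 without replicate 2 and 0.35 without replicate 3; it was 1.13 in CPM, 0.98 with merged exons and 1.32 with the longest transcript. The excess of the deafness pair over the glial pair was 7.26 with a pseudocount of 0.1, 6.02 with a pseudocount of 5, 7.33 in CPM, 7.28 with the longest transcript and 7.26 with merged exons; over the vascular pair it was 9.49 with a pseudocount of 0.1 and 6.68 with one of 5; over Gja1 it was 6.45 with a pseudocount of 5 and 6.54 in CPM. The changes with the pseudocount follow from its compression of low values, and the other values use another gene length or none. One other connexin, Gjd3, passed with no filter, among genes counted in all 3 libraries and in edgeR (1 of 12 each). Panx1 passed in CPM, among genes counted in all 3 libraries, without the trend and in edgeR (1 of 3 each). Leaving out a replicate gave 3 to 5 of the 10 partners above 1 TPM; 8 passed in CPM and 5 with merged exons or a pseudocount of 5. Without a filter most genes had no variance, so that fit's spread is unreliable. Low counts limit Gja4 and Gjc1. No paired analysis was possible because there is 1 group, so no samples pair across groups; genes were compared within each library.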
